A study of Mus musculus with 14 samples.

Results

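The members described here are 47 genes of fatty acid uptake and oxidation, chosen by their textbook role in the pathway, of 54532 genes counted in RNA of mouse cardiac tissue. They fall into 6 roles, which are uptake, binding and lipolysis (8 genes), activation, carnitine shuttle and malonyl-CoA (9), the β-oxidation spiral with electron transfer (15), thioesterases, uncoupling proteins and pyruvate dehydrogenase kinases (7), transcriptional regulators (5) and ketone body use (3). Of these 47 genes, 46 passed the filter on low counts, as did 16034 genes in all, and the gene that did not pass was Cpt1b. All mice were male C57BL/6J with the genotype WT, 8 weeks old at irradiation, and each gave 1 library. The irradiated groups received 30 Gy of 60Co γ-rays to the anterior chest with the rest of the body shielded by lead, under pentobarbital anaesthesia, and hearts were taken 1 day later (IRR_1d, n = 3) or 6 weeks later (IRR_6w, n = 4). The controls were unirradiated mice of the same time points (Control_1d, n = 3, and Control_6w, n = 4), and whether they were anaesthetised, whether any mice were fasted and at which hour the hearts were taken is not given in the sources used here, beyond that all had food and water. The comparisons ask how irradiation and time moved these genes.

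The adult heart draws most of its energy from long-chain fatty acids. Lipoprotein lipase frees them from circulating lipoproteins, CD36 and fatty acid transport proteins carry them into the cardiomyocyte, and the carnitine shuttle moves them into mitochondria. There the β-oxidation enzymes cut them into acetyl-CoA and pass electrons to the respiratory chain through electron transfer flavoprotein. The nuclear receptors PPARα and PPARδ, their coactivators PGC-1α and PGC-1β and the receptor ERRα set the transcription of many of these genes, and several of them, such as Pdk4, Angptl4 and Ucp3, respond to fasting and to the supply of fatty acids.

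Counts per library ran from 13336746 to 16837265, and levels are given as CPM, the counts scaled to a common library total by TMM, or as FPKM, the CPM divided by the deposited gene length in kilobases. Cardiomyocyte markers were detected in all 14 libraries, but 3 libraries also held brown fat RNA. Ucp1, which defines brown fat, had 3359 counts in IRR_1d replicate 3, 8493 in Control_6w replicate 3 and 11944 in IRR_6w replicate 1, and 0 in the other 11. All 6 brown fat markers had counts in these 3 libraries alone, all 8 white and general fat markers had counts in them and in Control_1d replicate 1 and IRR_1d replicate 1, and the summed level of those 8 was 1229, 1786 and 3796 CPM against 143.8 to 969.2 CPM in the others. The same libraries held RNA of markers of further tissues. Thymus markers summed to 2736 CPM in Control_6w replicate 3 and to at most 72.44 CPM elsewhere, lung epithelium markers to 355.2 CPM in IRR_6w replicate 1, 24.8 CPM in Control_6w replicate 3 and at most 3.57 CPM elsewhere, and atrial markers to 2831 CPM in IRR_6w replicate 1, 1943 CPM in IRR_1d replicate 3 and at most 535.7 CPM elsewhere. Liver markers summed to 65.06 CPM in Control_1d replicate 1 and to at most 12.32 CPM elsewhere. Skeletal muscle markers ran from 9.112 CPM in IRR_6w replicate 1 to 870.3 CPM in IRR_6w replicate 4. The 3 libraries with counts of Ucp1 are called the libraries with fat RNA here, and the part of each tissue in the values was not tested. The sum of 10 cardiomyocyte markers was 17430, 5290 and 8467 CPM in the same 3 libraries and 16720 to 46400 CPM in the others. A further 4 libraries listed many genes at 0 counts. Of 1835 genes with a median of 2 to 5 CPM, 29.6% were at 0 in Control_1d replicate 1, 20.4% in IRR_6w replicate 3, 8.01% in IRR_6w replicate 4 and 1.58% in Control_6w replicate 1, against at most 0.272% elsewhere. In IRR_6w, replicate 2 was the only library in neither set. In bulk RNA, fewer cardiomyocytes and less RNA of a gene per cardiomyocyte cannot be told apart.

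**Figure D1:**
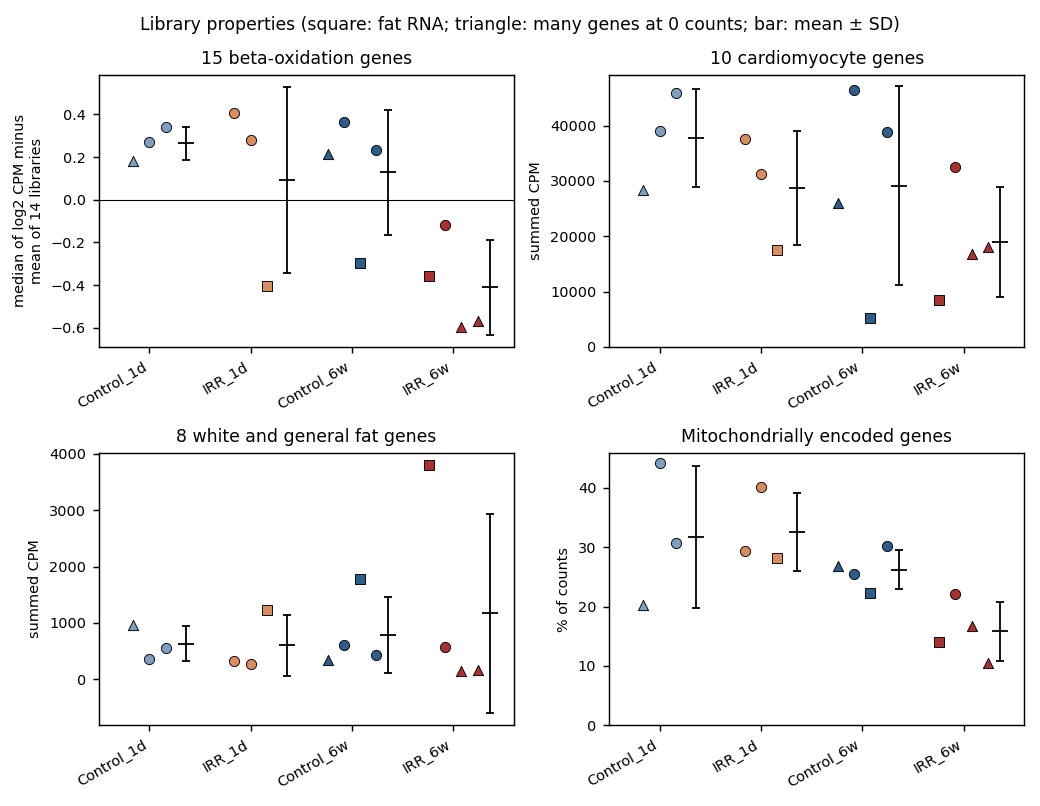
Each point is 1 library in its group (x axis). The panels plot the median deviation of the 15 β-oxidation genes from their mean over 14 libraries (log2 CPM), the summed CPM of 10 cardiomyocyte and of 8 white and general fat genes, and the percentage of counts in mitochondrially encoded genes, with the bar giving mean ± SD. In the first panel, the 4 IRR_6w libraries and the other 2 libraries with fat RNA lie below 0.

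Among the members, 3 genes of uptake and lipolysis had the highest mean level per length. Over the 14 libraries, the mean level was 1286 FPKM for Fabp3, the heart fatty acid binding protein, 698.8 FPKM for Cd36, the main fatty acid translocase, and 582.1 FPKM for Lpl, lipoprotein lipase. They were followed by Acaa2, the mitochondrial 3-ketoacyl-CoA thiolase, at 482.1 FPKM and Acadl, long-chain acyl-CoA dehydrogenase, at 386.7 FPKM. The order varied between libraries. Fabp3 was above Cd36 in 7 of 14 libraries, and Pdk4 had the fifth highest mean in Control_1d, above Acadl. Fabp3, Cd36 and Acaa2 were among the highest 5 in every library, and Lpl and Acadl in 12 of 14 each. Of the 5 transcriptional regulators, Esrra, which encodes ERRα, was at 29.2 FPKM (rank 28 of 47), Ppargc1a, which encodes PGC-1α, at 12.7, Ppara at 7.88, Ppard at 3.28 and Ppargc1b, which encodes PGC-1β, at 2.57 FPKM. Acot1, a cytosolic acyl-CoA thioesterase, was at 3.10 FPKM, beside its paralog Acot2 (chr12:83987861-83993873, plus strand of GRCm38), and how reads common to both were counted is not stated.

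The level of some members varied widely within a group. Fabp3 ran from 640 to 1930 and 3143 FPKM in Control_6w replicates 1, 4 and 2 and was 264 FPKM in replicate 3, so that its highest and lowest control differed 11.9-fold. Etfb, the β subunit of electron transfer flavoprotein, was at 0.0538 (1 count), 5.45 and 32.3 FPKM in Control_1d. For Etfb, 58.2% of the exonic bases also lie in the overlapping gene model Gm45233 on the same strand, which had 0 counts in every library. Etfb has a GC content of 57.1%, and the tenth of tested genes with the highest GC content deviated by a median of -1.0 (log2) from their mean in Control_1d replicate 1, where Etfb was lowest, against -0.31 to 0.44 in the other libraries; its part was not tested. Cpt1b, the muscle form of carnitine palmitoyltransferase 1, was listed at 0, 0.0597 and 0.206 FPKM in Control_1d, 0.325, 0.102 and 0.176 FPKM in IRR_1d, 0, 0.204, 0.0840 and 0.160 FPKM in Control_6w and 0.119, 0.232, 0 and 0 FPKM in IRR_6w. The 4 libraries at 0 are those with many genes at 0 counts. For Cpt1b, 81.4% of its exonic bases are shared on the same strand with the gene model Gm44502, also at 0 counts in every library. The levels of Cpt1b and Etfb are therefore uncertain, since the counting of reads that fit several genes is not stated.

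**Figure D2:**
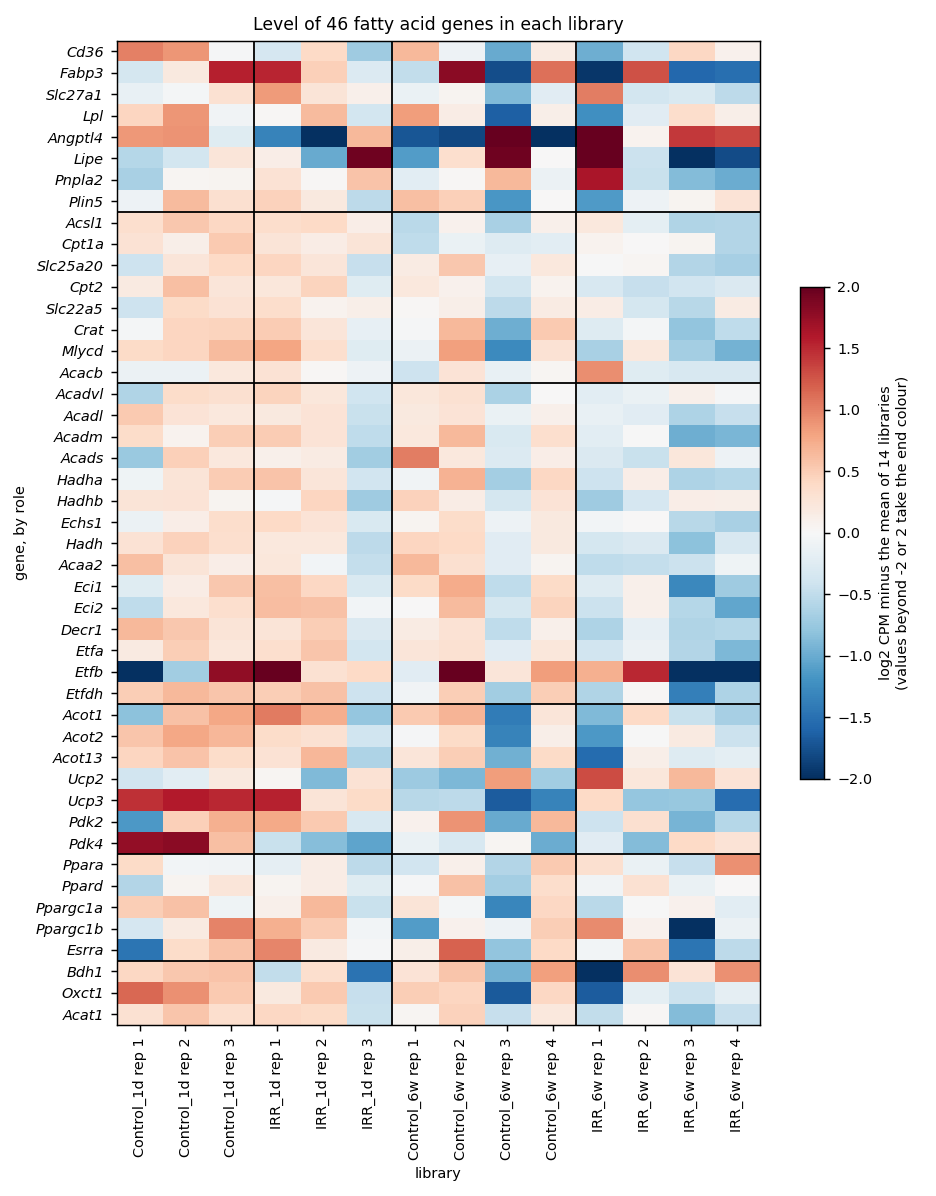
Rows are the 46 tested members ordered by role and columns are the 14 libraries ordered by group. Colour gives log2 CPM minus the mean of the 14 libraries, from -2 (blue) to 2 (red), and the rows of Pdk4 and Ucp3 are red in Control_1d while most β-oxidation rows are blue in IRR_6w.

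At 1 day after irradiation, Pdk4 was the member that stood furthest from its control. Pdk4 (chr6:5483351-5496309, minus strand of GRCm38) encodes the kinase that inhibits the pyruvate dehydrogenase complex and so spares glucose when fatty acids are burned. Its level was 582.4, 598.9 and 262.3 FPKM in the Control_1d libraries and 126.6, 95.3 and 82.7 FPKM in the IRR_1d libraries. Every irradiated library was below every control library, and the lowest value, 82.7 FPKM, came from the library with fat RNA. The mean was 481 ± 190 (SD, n = 3) against 102 ± 22.6 FPKM (SD, n = 3). The log2 fold change was -2.24 (SE 0.43), a 4.74-fold lower level, with an unadjusted p of 0.000114 and an adjusted p of 0.261 by edgeR with Benjamini-Hochberg adjustment over 16034 genes. DESeq2 gave the same size with an adjusted p of 4.54e-05 in a fit of all libraries, and over 22 alternative settings the adjusted p ran from 6.39e-07 to 1.0 while the log2 fold change stayed between -2.51 and -2.03. The sum of 10 clock genes was higher where Pdk4 was lower, at 373.2 to 492.6 CPM in Control_1d and 604.5 to 619.7 CPM in IRR_1d (Tef, Per2 and Per3 higher without overlap, the other 7 overlapping), and the sum of 6 endothelial markers was lower, at 1368 to 1608 CPM and 987.6 to 1186 CPM. The part of both in the 1-day values was not tested.

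The 250 bases before the start of Pdk4 are shown because Pdk4 carries the 1-day result, with the sequence taken from RefSeq on GRCm38.p6 (chr6:5496279-5496528, minus strand, 5′ to 3′). RefSeq puts the start inside the deposited gene range given above, so the window includes its first bases.

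Pdk4: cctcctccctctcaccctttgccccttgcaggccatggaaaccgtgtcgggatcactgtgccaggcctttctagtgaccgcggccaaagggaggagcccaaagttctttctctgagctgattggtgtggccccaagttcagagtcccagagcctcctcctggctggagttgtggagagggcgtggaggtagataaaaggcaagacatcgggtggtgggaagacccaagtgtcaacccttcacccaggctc

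This window was searched on both strands for AGGTCA, the half-site bound by PPAR and ERR receptors, for the extended form AAGGTCA, which contains it, for the direct repeat AGGTCANAGGTCA, and for CACGTG, the E-box read by clock and other factors. None of these letters was found in it, which says only that they are not in these 250 bases.

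None of the 46 members passed the threshold of a DEG at 1 day, defined as a fold change above 2 or below 0.5 with an adjusted p under 0.05 by edgeR, where 0.0249% of all tested genes were called. At an unadjusted p under 0.05, 1 member (Pdk4) was lower and 0 were higher, beside 2.90% of all tested genes in either direction, 0.960% lower and 1.94% higher. With DESeq2 on all libraries the count of DEGs was 1, again Pdk4, beside 0.187% of all tested genes. In 5 members every IRR_1d library was below every Control_1d library (background 4.15% of genes lower, 6.51% higher), and in 0 members every one was above. Besides Pdk4 these were Hadh, Acot2, Bdh1 and Oxct1. The median log2 fold change of the members was -0.14, with 29 of 46 below 0, beside a median of 0.06 over all tested genes, of which 44.7% were below 0. The members' median was 0.04 with 20 of 47 below 0 without the 3 libraries with fat RNA, beside 0.04 over all genes.

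The ketone body genes were the role with the lowest median at 1 day, at -0.75 over 3 genes, with 3 of 3 below 0. Oxct1, the enzyme that activates acetoacetate for oxidation, was at 549.9, 464.5 and 357.7 FPKM in Control_1d and 282.2, 357.0 and 178.9 FPKM in IRR_1d. The lowest control and the highest irradiated library differed by less than 1 FPKM. Bdh1, β-hydroxybutyrate dehydrogenase, was at 16.3, 17.8 and 18.3 FPKM in Control_1d and 8.66, 15.6 and 4.29 FPKM in IRR_1d, with the lowest value in the library with fat RNA. The log2 fold changes were -0.75 (SE 0.52, adjusted p = 1.0 by edgeR) for Oxct1 and -0.88 (SE 0.69, adjusted p = 1.0) for Bdh1. The 15 β-oxidation genes had a median of -0.16, with 10 of 15 below 0, and without the 3 libraries with fat RNA their median was 0.08 with 5 of 15 below 0. The transcriptional regulators had a median of 0.04 and lay between -0.26 and 0.38. At 6 weeks the 3 ketone body genes had a median of -0.51, from -0.65 to 0.05, with 2 of 3 below 0. Over all tested genes the 6-week median was -0.09, with 56.2% below 0. Oxct1 was at 349.3, 333.7, 76.9 and 328.2 FPKM in Control_6w and 77.8, 215.0, 183.6 and 217.4 FPKM in IRR_6w. Its 6-week groups overlapped through Control_6w replicate 3, a library with fat RNA.

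At 6 weeks after irradiation the β-oxidation genes were lower together by a modest amount that no member carried past the adjusted threshold. All 15 had a log2 fold change below 0, from -0.77 to -0.08 with a median of -0.60, beside a median of -0.09 over all tested genes, of which 56.2% were below 0. Of the 15, 6 had an unadjusted p under 0.05 by edgeR, namely Hadh, Etfa, Acadm, Acaa2, Eci1 and Eci2, all lower. These 6 were also the only members of the 46 at that limit, beside 8.81% of all tested genes in either direction, 3.37% lower and 5.43% higher. There were 0 DEGs among the members by edgeR, beside 0.256% of all tested genes, and 0 by DESeq2 on all libraries, beside 2.06%. The smallest adjusted p by edgeR was 0.41.

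Hadh (chr3:131233419-131272101, minus strand) encodes the short-chain 3-hydroxyacyl-CoA dehydrogenase of the third step of the spiral. Its level was 110.1, 107.3, 69.4 and 93.4 FPKM in Control_6w and 63.5, 66.6, 45.96 and 65.4 FPKM in IRR_6w. The groups did not overlap, and the control nearest to the irradiated libraries was replicate 3, which held fat RNA. The log2 fold change of Hadh was -0.65 (SE 0.25), with an unadjusted p of 0.0183 and an adjusted p of 0.41 by edgeR. Over 22 alternatives it lay between -0.81 and -0.40, with adjusted p from 0.0999 to 0.866.

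Acadl, the long-chain acyl-CoA dehydrogenase, was the other of the 2 members whose 6-week groups did not overlap (background 1.62% lower and 4.07% higher). It was at 433.8, 454.2, 344.5 and 405.7 FPKM in Control_6w and 342.1, 322.0, 245.1 and 274.4 FPKM in IRR_6w. Again the lowest control was the library with fat RNA, and the gap to the highest irradiated library was narrow. The log2 fold change was -0.47 (SE 0.24, adjusted p = 0.62 by edgeR).

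The medium-chain and thiolase steps and the isomerases followed the same direction with overlapping groups. Acadm, medium-chain acyl-CoA dehydrogenase, was at 203.4, 273.6, 142.5 and 222.4 FPKM in Control_6w and 151.2, 174.0, 89.3 and 93.0 FPKM in IRR_6w, a log2 fold change of -0.73 (SE 0.32, adjusted p = 0.52 by edgeR). Acaa2 was at 730.4, 583.8, 399.2 and 486.5 FPKM in Control_6w and 329.3, 335.9, 345.6 and 436.7 FPKM in IRR_6w, a log2 fold change of -0.60 (SE 0.26, adjusted p = 0.52). In both genes only Control_6w replicate 3 reached into the irradiated range. Eci1 and Eci2, the enoyl-CoA isomerases that prepare unsaturated fatty acids for the spiral, had the values 181.6, 233.6, 98.02 and 182.3 FPKM against 116.8, 149.1, 57.1 and 84.8 FPKM (Eci1), and 16.5, 25.3, 12.8 and 22.3 FPKM against 12.1, 17.5, 10.9 and 7.92 FPKM (Eci2). Their log2 fold changes were -0.77 (SE 0.34, adjusted p = 0.53 by edgeR) and -0.67 (SE 0.30, adjusted p = 0.55). Etfa, the α subunit of electron transfer flavoprotein, was at 292.3, 306.3, 210.8 and 291.1 FPKM in Control_6w and 190.8, 228.4, 165.8 and 132.2 FPKM in IRR_6w, with a log2 fold change of -0.62 (SE 0.26, adjusted p = 0.50 by edgeR). Here 3 of 4 controls lay above all irradiated libraries.

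At 1 day the same 6 genes had overlapping groups except for Hadh. Hadh was at 99.8, 111.5 and 103.1 FPKM in Control_1d and 94.5, 93.7 and 56.5 FPKM in IRR_1d, with the lowest value in the library with fat RNA and a log2 fold change of -0.36 (SE 0.28, adjusted p = 1.0 by edgeR). In the order of Control_1d and then IRR_1d, Etfa was at 281.4, 348.0 and 290.4 FPKM and 311.8, 365.0 and 193.0 FPKM, and Acadm at 225.5, 183.8 and 247.3 FPKM and 249.0, 212.5 and 123.4 FPKM. In both, IRR_1d replicate 3, which held fat RNA, was the lowest library. In the same order, Acaa2 was at 707.1, 556.8 and 513.5 FPKM and 543.9, 447.1 and 334.0 FPKM, Eci1 at 118.5, 155.3 and 202.8 FPKM and 213.1, 186.5 and 112.8 FPKM, and Eci2 at 11.4, 18.9 and 20.7 FPKM and 24.99, 24.6 and 15.6 FPKM. Their 1-day log2 fold changes lay between -0.42 (Acaa2) and 0.36 (Eci2).

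The promoter window of Acadm is shown as the one member window that holds AAGGTCA among the 45 windows of the 38 members found in the RefSeq table (GRCm38.p6, chr3:153944644-153944893, minus strand, 5′ to 3′), with capitals marking the half-site in its reverse complement.

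Acadm: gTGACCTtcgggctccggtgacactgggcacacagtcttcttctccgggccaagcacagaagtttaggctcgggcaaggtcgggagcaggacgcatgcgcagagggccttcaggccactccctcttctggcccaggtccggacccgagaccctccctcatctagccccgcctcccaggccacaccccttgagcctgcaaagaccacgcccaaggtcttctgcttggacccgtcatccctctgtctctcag

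AGGTCA stood in 7 of the 45 member windows (15.6%), in Acadm, Acadvl, Cd36, Cpt1a, Echs1, Plin5 and Ucp3, beside 14% of all 32851 windows of this length. AAGGTCA stood in 2.22% of member windows and 4.08% of all, the direct repeat in 0.0% and 0.0335%, and CACGTG in 6.67% and 6.02%, the last in Lipe, Pdk2 and Slc27a1. These are matches of letters and not sites of binding.

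**Figure D3:**
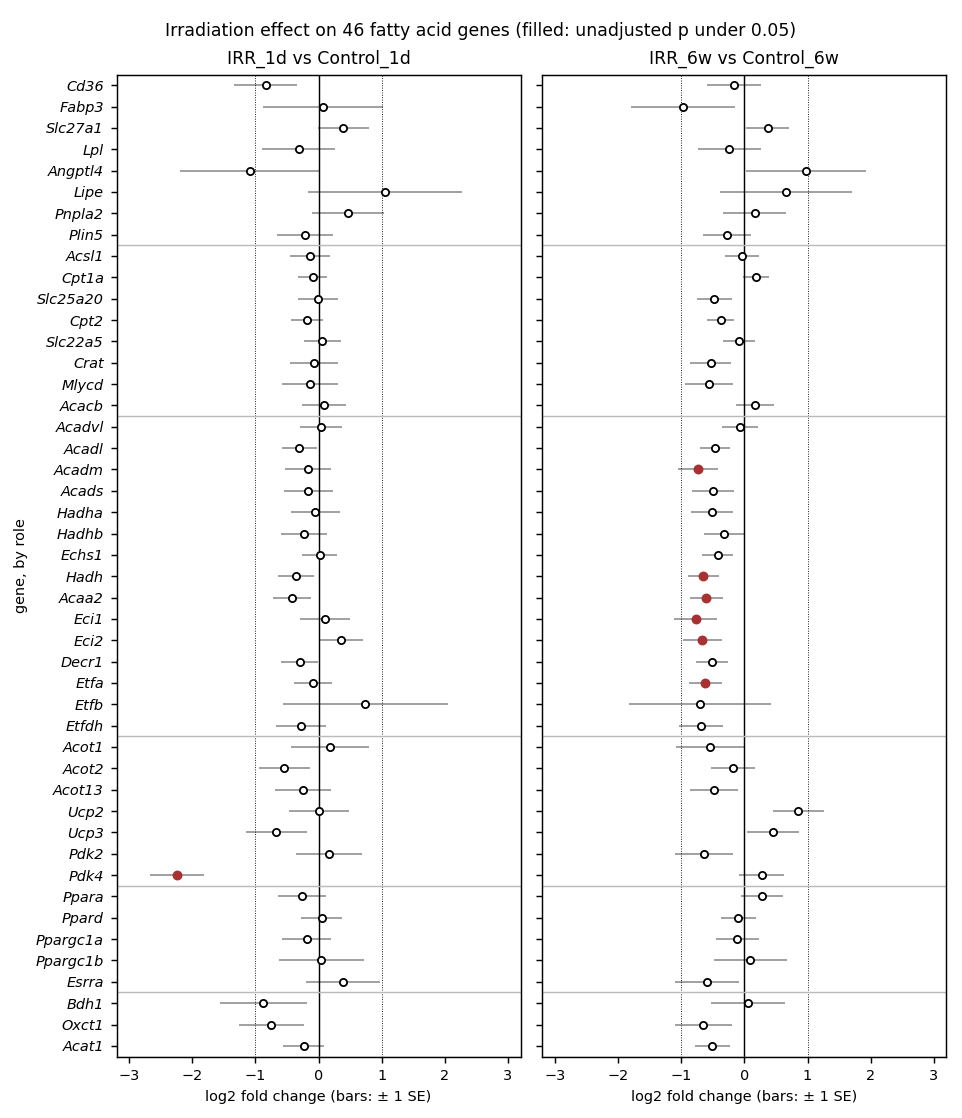
Log2 fold change ± 1 SE (x axis) of the 46 tested members by role (y axis) for IRR_1d against Control_1d on the left and IRR_6w against Control_6w on the right, with filled points for an unadjusted p under 0.05 and dotted lines at 1 and -1. Pdk4 is the 1 filled point on the left and the 6 filled points on the right are β-oxidation genes.

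Other library values moved with the β-oxidation genes at 6 weeks. The sum of 10 cardiomyocyte markers was 26010, 46400, 5290 and 38870 CPM in Control_6w and 8467, 32510, 16720 and 18050 CPM in IRR_6w, so the groups overlapped, and the percentage of counts in mitochondrially encoded genes was 22.26 to 30.27% against 10.43 to 22.16%, without overlap. The sum of 6 macrophage markers was 137.2 to 325.6 CPM in Control_6w and 458.8 to 715.7 CPM in IRR_6w, and that of 5 fibroblast markers was 809.9 to 1936 CPM and 2019 to 2689 CPM, both without overlap. The part of these in the lower β-oxidation values was not tested. Without the 3 libraries with fat RNA, 22 of 47 members had an unadjusted p under 0.05, of which 20 were lower (10.5% of all genes in that fit, 3.92% lower), and the β-oxidation median was -0.69 with 11 of 15 at that limit. Dropping the 4 libraries with many genes at 0 counts left IRR_6w replicates 1 and 2 and Control_6w replicates 2, 3 and 4. Of these, IRR_6w replicate 1 and Control_6w replicate 3 held fat RNA. In that setting, chosen after seeing the data, the count of members was 0 (all genes 5.64%, 0.94% lower) and the β-oxidation median -0.35, still with 15 of 15 below 0. With library totals in place of TMM the count was 1 member (all genes 10.3%, 1.4% lower), Ucp2, which was higher. The β-oxidation genes then had 0 of 15 at that limit, a median of -0.34 and 14 of 15 below 0, where all genes had a median of 0.14. Leaving out single libraries gave 0 members without IRR_6w replicate 3 (all genes 6.71%), 1 without Control_6w replicate 2 (7.63%), 2 without Control_6w replicate 1 or 4 (8.36 and 8.29%) and 3 without IRR_6w replicate 4 or IRR_1d replicate 2 (6.65 and 7.65%). It gave 11 without IRR_6w replicate 2 (11.5%), and 18 when Control_6w replicate 3 was dropped (11.3%).

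Among genes of uptake and lipolysis, the value of Angptl4 depended on the libraries with fat RNA. Angptl4 (chr17:33773750-33781575, minus strand) encodes a secreted inhibitor of lipoprotein lipase and is abundant in fat as well as in heart. In the 1-day groups its level was 11.1, 11.3 and 5.08 FPKM in Control_1d and 2.29, 1.10 and 9.52 FPKM in IRR_1d, where the highest irradiated value came from the library with fat RNA. In the 6-week groups it was 1.74, 1.61, 29.6 and 1.09 FPKM in Control_6w and 29.1, 6.37, 16.2 and 15.4 FPKM in IRR_6w. The 29.6 and 29.1 FPKM belong to the libraries with fat RNA, and the 3 other controls were all below 2 FPKM while the 3 other irradiated libraries were all above 6 FPKM. With all libraries, the log2 fold change was -1.09 (SE 1.10, adjusted p = 1.0 by edgeR) at 1 day and 0.97 (SE 0.95, adjusted p = 0.82) at 6 weeks. Without the 3 libraries with fat RNA it was -2.43 (SE 0.54, adjusted p = 0.36) at 1 day and 3.10 (SE 0.47, adjusted p = 0.0093) at 6 weeks, an 8.58-fold higher level, and Angptl4 was then the 1 DEG among the members (all genes 1.13%). In that setting the irradiation effect at 6 weeks exceeded that at 1 day by 5.53 (SE 0.73, adjusted p = 0.025 by edgeR). Of the 3 irradiated libraries that remain at 6 weeks, 2 are those with many genes at 0 counts.

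**Figure D4:**
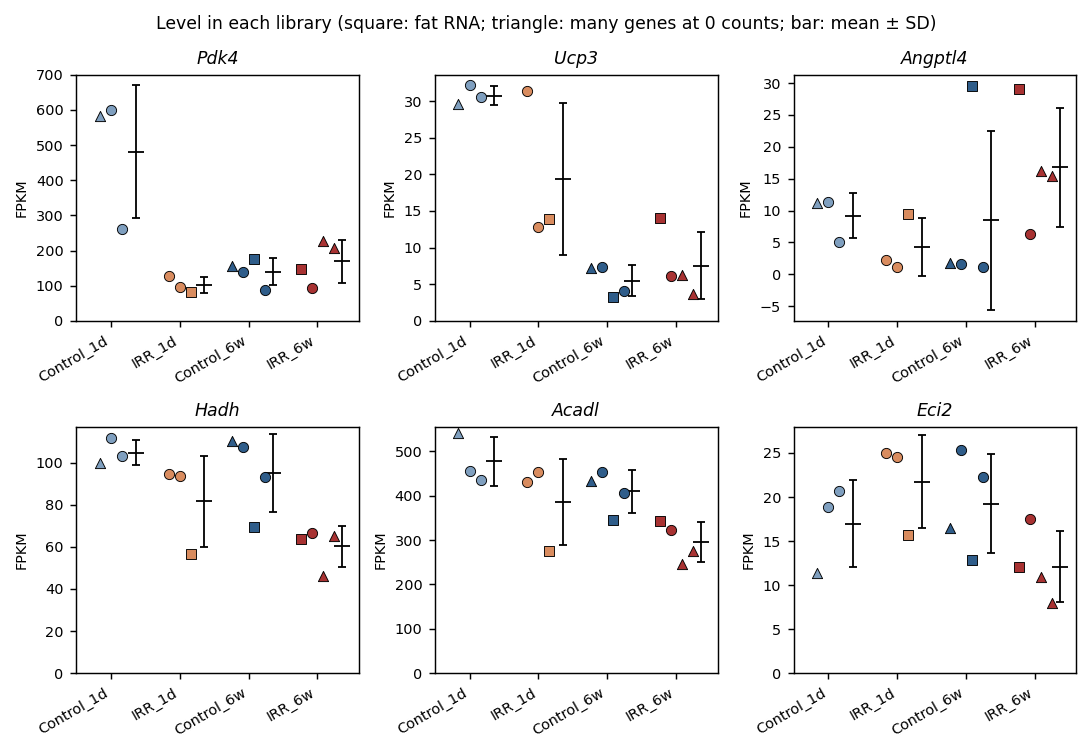
Level in FPKM (y axis, from 0 except for Angptl4) of 6 members in each library, by group (x axis), with squares for libraries with fat RNA, triangles for libraries with many genes at 0 counts and bars for mean ± SD. In Control_6w the 1 square of Angptl4 stands at 29.6 FPKM while the other 3 libraries are below 2 FPKM, and for Hadh and Acadl all IRR_6w points lie below all Control_6w points.

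With Angptl4 included, 4 of 8 genes of uptake and lipolysis had a log2 fold change below 0 at each time, and 0 of 8 had an unadjusted p under 0.05. Over all tested genes, 44.7% (1 day) and 56.2% (6 weeks) were below 0, and 2.90% and 8.81% had an unadjusted p under 0.05. Cd36 was at 1292, 1180 and 626 FPKM in Control_1d and 504, 838 and 389 FPKM in IRR_1d, a log2 fold change of -0.84 (SE 0.49, adjusted p = 1.0 by edgeR). The 1-day groups of Cd36 overlapped through Control_1d replicate 3. At 6 weeks Cd36 was at 999, 594, 316 and 713 FPKM in Control_6w and 324, 487, 848 and 676 FPKM in IRR_6w, and the groups lay over each other. Lipe, hormone-sensitive lipase and a gene of high level in fat, was at 27.1, 27.0 and 64.3 FPKM in the 3 libraries with fat RNA and at 1.14 to 8.78 FPKM in the others. Pnpla2, adipose triglyceride lipase, was likewise highest in these 3, at 150.3, 157.4 and 312.1 FPKM against 50.7 to 123.0 FPKM.

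Of the 8 tested genes of activation and the carnitine shuttle, 6 had a log2 fold change below 0 at each time and 0 had an unadjusted p under 0.05. The shares over all tested genes were 44.7% (1 day) and 56.2% (6 weeks) below 0, and 2.90% and 8.81% at an unadjusted p under 0.05. Cpt1a, the isoform of carnitine palmitoyltransferase 1 shared with liver, was at 16.7, 14.8 and 19.7 FPKM in Control_1d, 16.4, 15.1 and 16.4 FPKM in IRR_1d, 9.53, 12.5, 11.4 and 11.8 FPKM in Control_6w and 14.4, 13.7, 14.2 and 9.04 FPKM in IRR_6w. The irradiated and control ranges overlapped at both times, with log2 fold changes of -0.10 (SE 0.23) and 0.18 (SE 0.20). At 6 weeks Slc25a20, the carnitine-acylcarnitine carrier, had a log2 fold change of -0.48 (SE 0.28), Cpt2, the inner-membrane palmitoyltransferase, -0.38 (SE 0.22), Crat, carnitine acetyltransferase, -0.54 (SE 0.33), and Mlycd, malonyl-CoA decarboxylase, -0.56 (SE 0.38), with adjusted p of 0.68, 0.68, 0.70 and 0.73 by edgeR. In the fit without the 3 libraries with fat RNA these were -0.68, -0.50, -0.82 and -0.77, with unadjusted p of 0.0243, 0.0222, 0.00943 and 0.0336 and adjusted p of 0.363, 0.349, 0.228 and 0.412 by edgeR. In that fit 10.5% of all genes had an unadjusted p under 0.05, 3.92% lower. Without the 4 libraries with many genes at 0 counts the log2 fold changes were, in the same order, -0.19, -0.32, -0.35 and -0.32.

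Thioesterases, uncoupling proteins and the second pyruvate dehydrogenase kinase gave no call either. Acot2, a mitochondrial acyl-CoA thioesterase, was at 31.97, 36.9 and 34.2 FPKM in Control_1d and 27.9, 26.6 and 16.4 FPKM in IRR_1d, a log2 fold change of -0.54 (SE 0.41, adjusted p = 1.0 by edgeR). At 6 weeks Acot2 was at 21.3, 28.1, 8.41 and 23.3 FPKM in Control_6w and 9.60, 21.5, 24.6 and 16.01 FPKM in IRR_6w, with each group's lowest value in its library with fat RNA. Acot1 was at 1.49, 4.16 and 4.75 FPKM in Control_1d, 5.70, 4.60 and 1.53 FPKM in IRR_1d, 3.98, 4.41, 0.954 and 3.25 FPKM in Control_6w and 1.42, 3.61, 1.96 and 1.66 FPKM in IRR_6w. Its groups overlapped at both times. At 6 weeks the mean of Pdk2 was 87.6 FPKM in Control_6w and 56.0 FPKM in IRR_6w, and that of Acot13 was 238.1 and 169.7 FPKM. Both genes had overlapping ranges. The 7 genes of this role had 6-week log2 fold changes from -0.64 to 0.86, with a median of -0.18. Ucp2, a mitochondrial carrier also expressed in macrophages and fat, was at 11.6, 10.3, 34.5 and 11.9 FPKM in Control_6w and 47.5, 22.6, 30.1 and 23.4 FPKM in IRR_6w. Only Control_6w replicate 3, the control with fat and thymus RNA, reached the irradiated range of Ucp2, and the log2 fold change was 0.86 (SE 0.41, adjusted p = 0.58 by edgeR), or 1.17 (SE 0.26, adjusted p = 0.0575) without the 3 libraries with fat RNA. The macrophage and fibroblast sums given above were also higher in IRR_6w, and their part was not tested.

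The regulators stayed within the spread of their libraries. Ppara was at 9.91, 7.21 and 7.16 FPKM in Control_1d, 6.66, 8.41 and 5.18 FPKM in IRR_1d, 5.75, 8.07, 4.98 and 10.9 FPKM in Control_6w and 9.43, 6.85, 5.42 and 14.4 FPKM in IRR_6w. Ppargc1a, which encodes PGC-1α, was at 16.99, 18.2 and 11.3 FPKM, 12.99, 18.9 and 8.84 FPKM, 14.5, 11.7, 4.84 and 16.1 FPKM, and 8.28, 12.0, 12.8 and 10.4 FPKM in the same order of groups. The irradiated and control ranges of both genes overlapped at each time. The log2 fold changes at 1 day and 6 weeks were -0.26 (SE 0.38) and 0.28 (SE 0.33) for Ppara and -0.19 (SE 0.39) and -0.11 (SE 0.34) for Ppargc1a. Over the 5 regulators the 6-week log2 fold changes ran from -0.60 to 0.28, with a median of -0.10. Esrra had a lower mean at 6 weeks, at 33.8 FPKM in Control_6w and 22.3 FPKM in IRR_6w. Its ranges overlapped, at 14.8 to 58.4 FPKM in Control_6w and 9.21 to 37.7 FPKM in IRR_6w.

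Between the control groups, Ucp3 and Pdk4 had the largest log2 fold changes of the members in the model of all libraries, and both were lower at 6 weeks than at 1 day. Ucp3 (chr7:100472990-100486432, plus strand) encodes the uncoupling protein of muscle and heart mitochondria. It was at 29.6, 32.2 and 30.5 FPKM in Control_1d and 7.21, 7.39, 3.25 and 4.10 FPKM in Control_6w. The groups did not overlap and the 3 libraries of Control_1d lay close together. The log2 fold change was -2.49 (SE 0.45), a 5.60-fold lower level, with an unadjusted p of 7.23e-05 and an adjusted p of 0.244 by edgeR. The adjusted p was 0.0232 by edgeR with no filter on low counts and 0.000259 by DESeq2 on all libraries, and ran from 3.13e-07 to 0.994 over 22 alternatives. In the irradiated groups Ucp3 was at 31.4, 12.8 and 13.9 FPKM in IRR_1d and 14.1, 6.14, 6.22 and 3.602 FPKM in IRR_6w, where the highest IRR_6w value came from the library with fat RNA. The library IRR_1d replicate 1 was at the level of the 1-day controls while the other two were not.

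The window before Ucp3 is shown because it holds the half-site AGGTCA at 149 and at 44 bases before the start, marked in capitals (RefSeq, GRCm38.p6, chr7:100472741-100472990, plus strand, 5′ to 3′).

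Ucp3: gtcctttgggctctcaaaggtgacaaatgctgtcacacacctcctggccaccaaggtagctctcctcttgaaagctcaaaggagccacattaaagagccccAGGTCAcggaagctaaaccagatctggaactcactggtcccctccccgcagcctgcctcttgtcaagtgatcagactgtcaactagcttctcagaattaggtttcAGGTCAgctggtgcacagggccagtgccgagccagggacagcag

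Pdk4 was at 156.1, 137.9, 177.1 and 86.6 FPKM in Control_6w, all below the 3 Control_1d values given above. Its log2 fold change between the controls was -1.79 (SE 0.38, unadjusted p = 0.000345, adjusted p = 0.482 by edgeR), with adjusted p from 0.00238 to 1.0 over 22 alternatives. Cpt1a and Acsl1, the main long-chain acyl-CoA synthetase of the heart, were lower with log2 fold changes of -0.59 (SE 0.22, adjusted p = 0.902 by edgeR) and -0.64 (SE 0.29, adjusted p = 0.902). These 4 genes were the members at an unadjusted p under 0.05, all lower, beside 5.28% of all tested genes in either direction, 1.75% lower and 3.54% higher. By edgeR 0 members were DEGs, as were 0.00% of all genes, while DESeq2 on all libraries called 2, Pdk4 and Ucp3, beside 0.168% of all genes. In 6 members all Control_6w libraries were below all Control_1d libraries (background 2.54% lower and 3.38% higher), and these were Acsl1, Cpt1a, Acot2, Ucp3, Pdk4 and Oxct1. The mice of the 2 control groups differed in age and in time of collection, and the clock gene sum was 182.5 to 300.0 CPM in Control_6w against 373.2 to 492.6 CPM in Control_1d. Its members did not move alike. All Control_6w libraries were below all Control_1d libraries in 4 of 10 (Nr1d1, Nr1d2, Dbp and Per3) and above them in 2 (Arntl and Per2). Age, feeding, hour and processing day cannot be told apart here. The count of 4 was 2 without Control_1d replicate 3 (all genes 8.66%), 2 without Control_6w replicate 1 (5.89%) and 7 without the 3 libraries with fat RNA (4.61%).

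Between the irradiated groups, 6 members were lower at 6 weeks at an unadjusted p under 0.05 and 0 were higher, beside 5.79% of all tested genes in either direction, 1.60% lower and 4.20% higher. They were Ucp3 at -1.36 (SE 0.44), Eci2 at -0.84 (SE 0.33), Etfa at -0.69 (SE 0.28), Decr1, the dienoyl-CoA reductase of unsaturated fatty acids, at -0.66 (SE 0.27), Etfdh, which hands the electrons of the flavoprotein to ubiquinone, at -0.84 (SE 0.37), and Cpt2 at -0.53 (SE 0.23), all log2 fold changes. The adjusted p ran from 0.596 for Ucp3 to 0.83 for Cpt2 by edgeR, and 0 members were DEGs by edgeR (background 0.0374%) and 0 by DESeq2 on all libraries (background 0.911%). In Cpt1a and Cpt2 all IRR_6w libraries were below all IRR_1d libraries (background 3.85% lower and 5.44% higher). Without the 3 libraries with fat RNA the count was 25, of which 22 were lower (9.95% of all genes in that fit, 3.23% lower), and Angptl4 and Ucp3 were DEGs (all genes 0.659%), with log2 fold changes of 2.89 (adjusted p = 0.0361 by edgeR) and -2.06 (adjusted p = 0.0327). Without the 4 libraries with many genes at 0 counts the count was 0 (all genes 4.31%, 0.989% lower). Leaving out 1 library gave 0 members without IRR_1d replicate 1 (all genes 2.87%), 1 without IRR_1d replicate 2 or IRR_6w replicate 4 (3.01 and 3.82%) and 2 without IRR_6w replicate 3 (4.34%). It gave 11 without IRR_6w replicate 2 (7.89%), 12 without Control_6w replicate 3 (8.35%) and 13 without IRR_1d replicate 3 (5.19%). The clock gene sum was 604.5 to 619.7 CPM in IRR_1d and 216.9 to 308.3 CPM in IRR_6w (5 of 10 genes lower and 2, Arntl and Per1, higher without overlap), the macrophage sum 315.7 to 413.7 and 458.8 to 715.7 CPM, and mitochondrially encoded genes took 28.11 to 40.19% and 10.43 to 22.16% of counts. None of these overlapped, and their part in the values between the irradiated groups was not tested.

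The difference between the irradiation effect at 6 weeks and at 1 day was tested in the same model. The 2 members at an unadjusted p under 0.05 were Pdk4, for which the effect at 6 weeks exceeded that at 1 day by 2.52 on the log2 scale (SE 0.55, unadjusted p = 0.000399, adjusted p = 0.40 by edgeR), and Eci2, for which it was lower by a log2 difference of -1.02 (SE 0.46, adjusted p = 0.99), beside 3.14% of all tested genes, 2.13% higher and 1.01% lower. Pdk4 was at 146.7, 94.0, 226.6 and 208.4 FPKM in IRR_6w, a range that overlapped Control_6w, with a 6-week log2 fold change of 0.28 (SE 0.35). DESeq2 gave an adjusted p of 0.00275 for the Pdk4 difference, and by edgeR 0 members were called (background 0.00%). All 15 β-oxidation genes had a lower effect at 6 weeks than at 1 day, with a median difference of -0.41 beside -0.15 over all tested genes, of which 58.6% were below 0. With library totals this was 10 of 15 with a median of -0.19 (all genes 0.001). Without the 4 libraries with many genes at 0 counts it was 13 of 15 with -0.14 (all genes -0.09). Without the 3 libraries with fat RNA it was 15 of 15 with -0.79 (all genes -0.08). The count of 2 was 1 without Control_1d replicate 1 or 2, Control_6w replicate 2 or 4, IRR_1d replicate 2 or IRR_6w replicate 3 (all genes 2.21 to 3.23%), 4 without IRR_6w replicate 2 (4.85%), and 5 when Control_6w replicate 3 was dropped (4.76%).

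Of 81 further lipid genes listed from the pathway, 77 were tested and 0 were DEGs by edgeR in the irradiation comparisons (all genes 0.0249% at 1 day and 0.256% at 6 weeks), and 0 by DESeq2 on all libraries (0.187% and 2.06%). At 1 day 2 of 77 (2.6%) had an unadjusted p under 0.05, beside 2.90% of all tested genes, and the median log2 fold change of the 77 was -0.02. Cpt1c, the brain form of carnitine palmitoyltransferase 1, was higher, at 0 to 0.628 FPKM in Control_1d and 1.87 to 3.12 FPKM in IRR_1d (log2 fold change 2.74, SE 0.98, adjusted p = 1.0 by edgeR), and Tfam, the mitochondrial transcription factor, was lower (log2 fold change -0.67, SE 0.31, adjusted p = 1.0). The next in order of p were the peroxisomal genes Acaa1b and Ehhadh, at log2 fold changes of 4.45 (SE 2.24) and -1.12 (SE 0.65), and Fasn, fatty acid synthase, at 4.36 (SE 2.60). The fold changes of Fasn and Acaa1b rest on IRR_1d replicate 3, a library with fat RNA. Fasn was at 205.0 FPKM there, at 4.87 and 2.33 FPKM in the other IRR_1d libraries and at 2.36 to 4.37 FPKM in Control_1d. Acaa1b was at 5.45 FPKM there, at 0.0984 and 0.350 FPKM in the other IRR_1d libraries and at 0 to 0.154 FPKM in Control_1d. At 6 weeks 3 of 77 (3.9%) passed that limit, beside 8.81% of all tested genes, with a median over the list of -0.08. Ech1, a dienoyl-CoA isomerase of β-oxidation, was at 162 to 533 FPKM in Control_6w and 114 to 322 FPKM in IRR_6w (log2 fold change -1.01, SE 0.43, adjusted p = 0.51 by edgeR). Scd4, a stearoyl-CoA desaturase, and Gpam, which starts triglyceride synthesis, were higher, with log2 fold changes of 2.16 (SE 0.80, adjusted p = 0.40 by edgeR) and 0.88 (SE 0.33, adjusted p = 0.42). Scd4 was at 13.3 FPKM in IRR_6w replicate 1, a library with fat RNA, and at 0.680 to 2.45 FPKM in the other IRR_6w libraries, against 0.545 to 2.07 FPKM in Control_6w. Acox3, a peroxisomal acyl-CoA oxidase, and Nrf1, a regulator of mitochondrial genes, were next, at 0.50 (SE 0.24) and -0.72 (SE 0.36). Cpt1c was at 0.263 to 0.651 FPKM in Control_6w and 0.686 to 1.64 FPKM in IRR_6w. It was the 1 gene of the 77 (1.3%) whose 6-week groups did not overlap, beside 5.69% of all tested genes.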

How the data were processed

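RNA of cardiac tissue was sequenced in 14 libraries. Per the labels and the study's methods, the authors checked reads with FastQC 0.11.8, trimmed them with Trim Galore 0.6.1, aligned them to mm10 with STAR 2.5.0a and obtained gene counts from HTSeq. The authors deposited raw counts of 54532 genes with a length for each gene. Strandedness, counting mode and annotation release are not given in the sources used here.

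Groups follow the labels, with 1 library per mouse. The test was edgeR 4.0.16 (R 4.3.3), run on the whole table (filterByExpr, TMM, a model of 4 group means with all 14 libraries, quasi-likelihood test), with Benjamini-Hochberg adjustment over 16034 genes, and only the members and a list of lipid genes are printed. All tests were two-sided. SEs are of log2 fold changes. FPKM and CPM were computed here from TMM-scaled totals, and log2 CPM used a prior count of 0.5. Exons shared between genes were read from GENCODE M21, and promoter windows from RefSeq. Alternatives were DESeq2 1.42.0, fits of 2 groups, library totals, no filter, a replicate block, and leaving out libraries. In counts simulated for IRR_1d against Control_1d (15674 genes) edgeR recovered 23% of genes changed by a log2 fold of 2, and for IRR_6w against Control_6w (15659 genes) 45%. The counts were drawn independently for each gene, without libraries with fat RNA or with many genes at 0 counts. Smaller changes were not simulated, so these shares do not give the recovery in the real libraries.

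The members and lists were chosen with earlier results of these data known. Fold changes are given for members with an unadjusted p under 0.05 (at most 10 per comparison), and values in every library for these in the irradiation comparisons and for Pdk4, Angptl4, Ucp3, Cpt1a, Cpt1b, Cd36, Acot1, Acot2, Ppara and Ppargc1a. Of the lipid list, up to 5 genes with the smallest p per irradiation comparison qualified. Acadl, Oxct1, Bdh1, Ucp2, Lipe, Pnpla2, Fabp3, Etfb, Slc25a20, Crat, Mlycd, Esrra, Pdk2 and Acot13 were chosen after their values were seen. So were Cpt2 and Cpt1c at 6 weeks against control.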

Additional observations from a re-analysis of the deposited data

Results flagged for a closer look

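In groups of 4 libraries, the highest and lowest values of 16 members were compared with the rest by Dixon's criterion. A library was flagged when its gap to the nearest library, as a share of the range, was above the 95% critical value. Of 32 such tests, 5 flagged a library. A single test flags about 1 in 20 by chance. These tests share the same libraries and are not independent, so that rate cannot be set against the count of 5. Angptl4 was highest in Control_6w replicate 3 at 29.6 FPKM, a library with fat RNA. Etfa was lowest in that library at 211 FPKM. Cpt1a was lowest in IRR_6w replicate 4 at 9.04 FPKM. Hadh was lowest in IRR_6w replicate 3 at 46 FPKM. Acaa2 was highest in IRR_6w replicate 4 at 437 FPKM, just past the critical value.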

How the results depend on the processing

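No fold change of a member at an unadjusted p under 0.05 changed direction, nor did that of Angptl4 outside the comparison of the controls. Between the controls the log2 fold change of Angptl4 was -0.10 (SE 1.01), and its direction over the settings was not examined. Medians did change direction, among the settings other than single libraries left out, for which none were computed. Without the 3 libraries with fat RNA the 1-day median turned for the β-oxidation genes (-0.16 to 0.08) and for all members (-0.14 with 29 of 46 below 0, to 0.04 with 20 of 47), and with library totals the members' median for the change in effect turned from -0.19 to 0.02. The β-oxidation median between the controls turned from -0.06 to 0.06 with library totals and to 0.09 without the fat libraries. Of the alternative values, 668 kept their side of the threshold or moved by less than 1.5 times, 61 counts moved more, and 12 fold changes passed the adjusted threshold that they missed otherwise. The cause of these moves was not tested.

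Counts of members called as DEGs were 0 in all 5 comparisons by edgeR and 0 (lowest) to 0 (highest) when single libraries were left out. DESeq2 called 1 at 1 day (all libraries and the 2 groups alone, beside 0.187 and 0.41% of all genes), 2 between the controls (both fits, 0.168 and 0.262%) and 1 for the change in effect (0.268%). Without a filter on low counts edgeR called 1 between the controls (0.0202%). Without the 3 libraries with fat RNA it called 1 at 6 weeks (1.13%), 2 between the irradiated groups (0.659%) and 1 for the change in effect (0.182%).

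Counts at an unadjusted p under 0.05 were 1 at 1 day, 6 at 6 weeks, 4 between the controls, 6 between the irradiated groups and 2 for the change in effect. Leaving out single libraries gave 1 to 2, 0 to 18, 2 to 5, 0 to 13 and 1 to 5, the 2 at 1 day being without IRR_1d replicate 1 (all genes 2.16%). Without the fat libraries they were 3, 22, 7, 25 and 12, beside 2.22, 10.5, 4.61, 9.95 and 6.51% of all genes. Without the 4 libraries with many genes at 0 counts, a choice made after seeing the data, they were 0 at 6 weeks and 0 for the irradiated groups (5.64 and 4.31%). Library totals gave 1 at 6 weeks, and 2 each for the controls and the irradiated groups (10.3, 7.14 and 8.62%). DESeq2 on the 2 groups gave 4 at 1 day and 11 between the irradiated groups (4.61 and 9.28%), DESeq2 on all libraries gave 10 at 6 weeks (10.2%), and edgeR on the 2 groups gave 1 at 6 weeks (7.56%).

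Members without overlap were 5 at 1 day (6 to 13 with a library left out: 13 without Control_1d replicate 3, 11 without IRR_1d replicate 2 and 8 without IRR_1d replicate 1, where 32.7, 22.8 and 16.4% of all genes did not overlap) and 2 at 6 weeks (2 to 17: 17 without Control_6w replicate 3, 6 without IRR_6w replicate 2 and 4 without IRR_6w replicate 4, beside 13.5, 10.6 and 7.71% of all genes). At 6 weeks they were 1 by library totals, 19 (17 lower) without the fat libraries and 5 without the 4 libraries with many genes at 0 counts, beside 7.12, 18.7 (8.86 lower) and 19.2% of all genes. Groups with fewer libraries overlap less by construction.

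Replicate numbers gave no clear sign of paired samples, though correlations with 3 or 4 libraries per group cannot exclude a pairing. Deviations of same-numbered libraries correlated at -0.159, 0.04 and -0.0781 at 1 day and at -0.364, 0.371, -0.176 and 0.041 at 6 weeks, and 0 of 3 and 1 of 4 libraries correlated best with their own number. With the replicate block the counts at an unadjusted p under 0.05 were 2 at 1 day, 8 at 6 weeks, 2 between the controls, 7 between the irradiated groups and 4 for the change in effect, beside 1.98, 6.71, 4.55, 4.69 and 2.51% of all genes, with 0 DEGs.

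Groups of 3 or 4, with fat RNA or many genes at 0 counts in 7 of 14 libraries, limit what can be called. When libraries were scaled by their totals and not by TMM, the median over all tested genes lay higher by 0.08 (1 day), 0.23 (6 weeks), 0.16 (controls), 0.32 (irradiated groups) and 0.15 (change in effect) on the log2 scale.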
